A study of Mus musculus with 36 samples.

Results

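The 9 genes described here encode enzymes of heme metabolism. Alas1, Alad, Uros, Urod, Cpox, Ppox and Fech act in heme synthesis, and Hmox1 and Blvrb act in heme breakdown. They were taken by symbol from a deposited table of 21654 genes and followed over 12 groups of mouse liver. Each gene had 1 row in that table, and all 9 were among the 13201 genes with enough reads to be tested. The livers came from C57BL/6 mice of 2 genotypes, wild type and Bmal1 knockout. BMAL1, encoded by Arntl, is the transcription factor that forms the activating arm of the circadian clock with CLOCK or NPAS2. The knockout was in place before birth, per the series title, and the animals came from the C. Bradfield laboratory. The labels abbreviate it cKO and name no promoter or Cre line. All mice lived in a cycle of 12 h light and 12 h dark with free food, so the time courses below were recorded under light and feeding cycles. Livers were taken at Zeitgeber time (ZT, hours after lights on) 0, 4, 8, 12, 16 and 20, with 3 mice per genotype and time, each a separate animal. The mice were 6.4 to 13.9 weeks old, came from 20 cages, and by label included 9 females and 9 males of each genotype.

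Heme is built from glycine and succinyl-CoA. The pathway starts in the mitochondrion with ALAS, the rate-limiting enzyme, passes through the cytosol, and ends in the mitochondrion where ferrochelatase (Fech) inserts iron into protoporphyrin. Alas1 is the housekeeping form of ALAS and is strongly regulated in liver, where much of the heme goes into cytochrome P450 enzymes and where heme itself represses Alas1. Heme oxygenase (Hmox1 is the inducible form) opens the ring to biliverdin, and biliverdin reductases, of which Blvrb also acts as a flavin reductase, reduce biliverdin to bilirubin. Heme also binds the clock repressors REV-ERBα and REV-ERBβ.

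The libraries held 12657858 to 12839653 reads assigned to genes (median 12744399). Levels are read counts scaled to a common library size with TMM factors (CPM). They were not divided by gene length and are compared within a gene only. A gene was called where the edgeR quasi-likelihood test gave a Benjamini-Hochberg adjusted p under 0.05 over the 13201 genes, and all adjusted p-values below are of that kind unless DESeq2 is named. Arntl reads in wild-type livers ran from 38.9 ± 2.9 CPM at ZT20 to 0.997 ± 0.23 at ZT8 (SD, n = 3). In knockout livers Arntl averaged from 16.7 CPM (ZT0) to 19.7 (ZT12); the table holds 1 count for the whole gene, so this level does not check which part was deleted. The 12 libraries from ZT16 and ZT20 (the ZT16/20 libraries) stood apart from the other 24 on the first principal component (14.2 to 102.54 against -37.22 to -12.53). Their expression also related to transcript GC content in the opposite direction (Spearman rho of -0.598 to -0.151 against 0.166 to 0.467), so results on time of day are also given without them. The library of wild-type ZT16 replicate 3 was labelled female but had 4 Xist reads and 1874 Ddx3y reads, whereas the other 17 libraries labelled female had 6910 to 15138 and 0 to 8. Without it, Uros, Hmox1 and Blvrb were called between genotypes over all times, as were 4783 of 13391 genes tested, and Alas1, Alad, Uros, Ppox and Fech followed a called wild-type 24 h course, as did 7108 genes.

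Promoter sequence was matched by symbol for 7 of the 9 genes in the RefSeq table on GRCm38.p6, as 11 windows of 250 bases ending at an annotated start site. Fech and Hmox1 had no window and were not searched. The motif CACGTG, the E-box bound by BMAL1 and its partners, reads the same on both strands and was present in 1978 of all 32851 such windows (6.02%). Among the 7 genes with a window it occurred once in each of 2 Alad windows, 1 of 2 Uros windows and the single Urod window. These 3 windows are shown because they hold that motif and belong to genes whose behaviour differed, as described below. Capitals mark the E-box and, in Uros only, 2 other motifs. They are written 5′ to 3′ on the minus strand, from chr4:62520064-62520313 for Alad, chr7:133709296-133709545 for Uros and chr4:116994414-116994663 for Urod.
Alad: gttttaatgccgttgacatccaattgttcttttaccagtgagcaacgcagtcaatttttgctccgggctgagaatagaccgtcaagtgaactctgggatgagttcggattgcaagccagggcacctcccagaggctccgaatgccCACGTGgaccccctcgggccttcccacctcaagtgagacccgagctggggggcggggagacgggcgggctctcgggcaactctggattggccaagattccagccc
Uros: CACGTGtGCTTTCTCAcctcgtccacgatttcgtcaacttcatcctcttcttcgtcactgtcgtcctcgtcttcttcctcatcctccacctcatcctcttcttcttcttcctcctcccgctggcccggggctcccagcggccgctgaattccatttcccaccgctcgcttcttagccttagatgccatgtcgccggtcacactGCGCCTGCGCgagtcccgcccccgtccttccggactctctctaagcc
Urod: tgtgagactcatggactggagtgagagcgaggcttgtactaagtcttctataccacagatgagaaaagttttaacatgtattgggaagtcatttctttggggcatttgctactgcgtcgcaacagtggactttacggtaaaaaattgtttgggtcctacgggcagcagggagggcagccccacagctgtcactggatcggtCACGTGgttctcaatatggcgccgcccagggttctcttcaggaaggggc
The E-box began 105 bases before the start site in the Alad window and 49 bases before it in Urod. The end bases of the Alad window shown were not found in a transcript. Those of the other Alad window, with its E-box at -28, were found. In Uros the E-box began at -250, the far edge of the window. That window holds 25 bases of the 5′ untranslated region of the divergently transcribed neighbour Bccip. From there to the far edge, E-box included, the window lies within the Bccip gene. Coding and intron bases of Bccip were not counted, so this window is in part transcribed sequence of another gene. The other capitals in Uros are GCTTTCTCA at -243, a minus-strand match to the antioxidant response element core TGANNNNGC (35.2% of all windows), and GCGCCTGCGC at -47, a match to the NRF1 motif (3.74% of all windows). Both were searched on both strands. In Alas1 the NRF1 motif occurred at -224 (GCGCGTGCGC) and -195 (GCGCATGCGC) of the downstream start site, and no window of Alas1 held CACGTG. The 2 Alas1 windows are not shown because 250 and 235 of their 250 bases lie in annotated untranslated exons of Alas1 itself, so they describe transcribed sequence and not the region upstream of the gene. No member window held TAGGTCA, a core of the element bound by ROR and REV-ERB proteins (2.23% of all windows), or TTANGTAA, the D-box (2.06%). These are matches of letters, and no binding was measured.

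**Figure D1:**
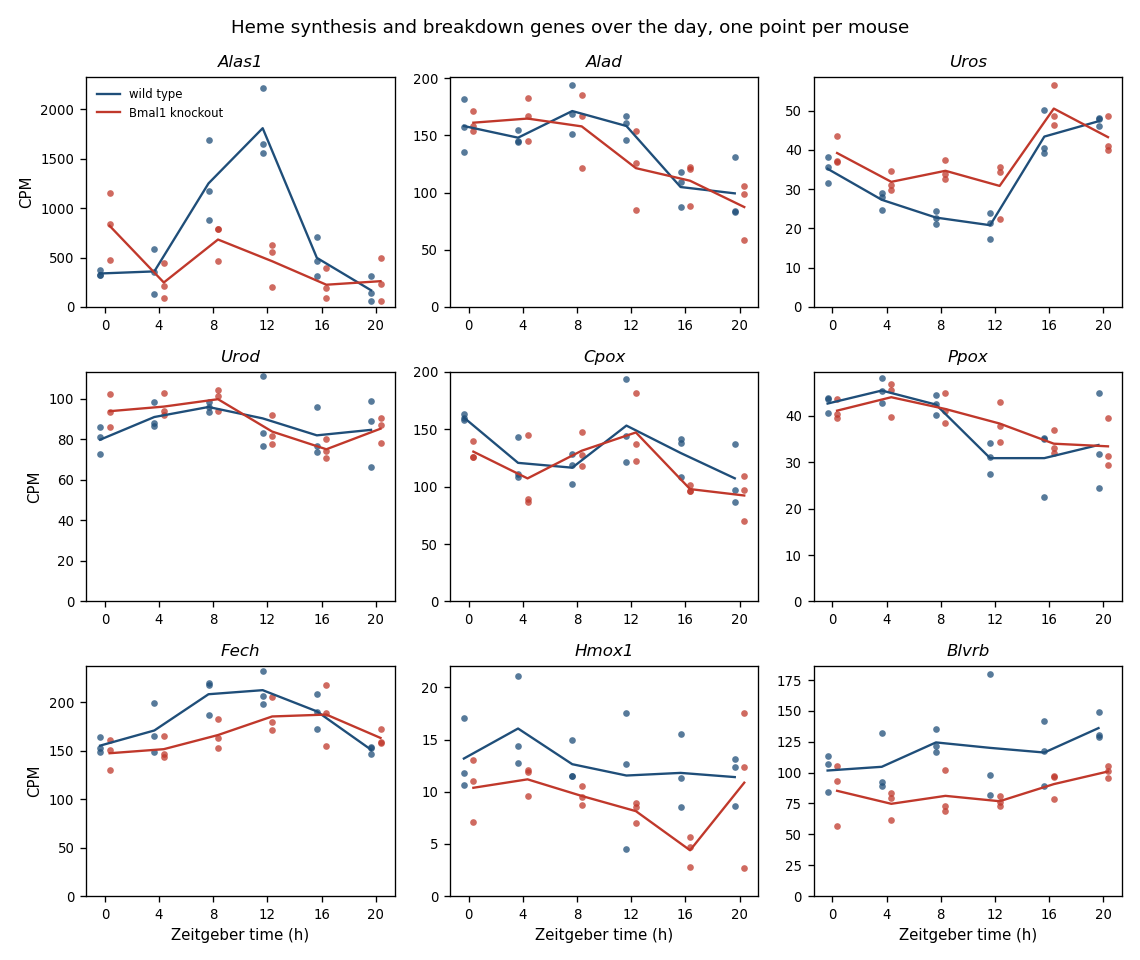
Level of each of the 9 genes in CPM (y axis, from 0) against Zeitgeber time in hours (x axis), with 1 point per mouse and a line through the mean of each group of 3, wild type in blue and Bmal1 knockout in red. Wild-type Alas1 climbed to 1810 CPM at ZT12 while knockout Alas1 was at 463, Uros was lowest at ZT8 and ZT12 in wild type, and Blvrb ran lower in knockout at every time.

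Over all 6 times together, 3 of the 9 genes differed between genotypes, as did 35.7% of all genes tested. Uros was higher in knockout (17.6% of all genes were called higher), and Hmox1 and Blvrb were lower (18.1% were called lower). The median difference of the 9 genes, knockout minus wild type, was -0.11 on the log2 scale, against 0.01 for all genes tested. At single times the calls were 2 of 9 at ZT8 (background 8.56%), 3 of 9 at ZT12 (11.9%) and 1 of 9 at ZT16 (8.61%). None was called by edgeR at ZT0 (1.97% of all genes), ZT4 (3.56%) or ZT20 (3.38%), where 0, 1 and 1 members had an unadjusted p under 0.05. DESeq2 also called 0 at each of these times. Each time compares 3 mice with 3, and the 6 times share no animals.

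**Figure D2:**
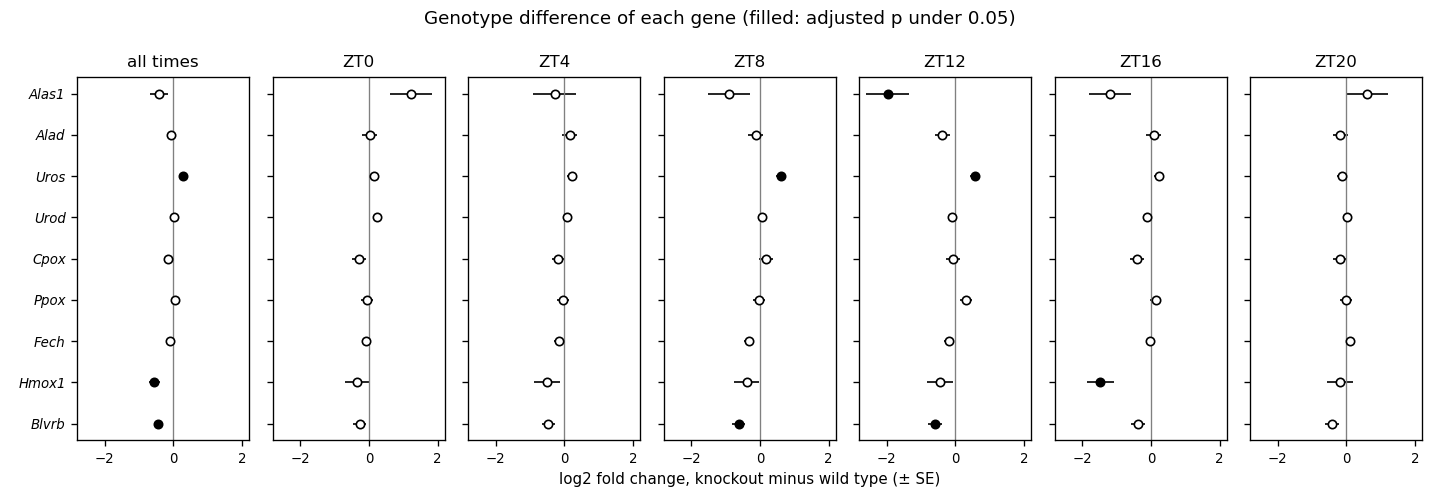
Difference between genotypes for each gene, knockout minus wild type, as log2 fold change ± SE from the edgeR model (x axis), over all times and at each time; filled points had an adjusted p under 0.05. The filled points are Uros, Hmox1 and Blvrb over all times, Uros and Blvrb at ZT8 and ZT12, Alas1 at ZT12 and Hmox1 at ZT16.

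Alas1 (ENSMUSG00000032786, chr9:106135786-106150457 in mm9, the build of all gene coordinates below) varied more than any of the other members. In wild-type livers it was highest at ZT12, with 2218, 1654 and 1557 CPM in the 3 mice, and at ZT8, with 1176, 884 and 1693. In knockout livers the same times gave 202, 628 and 557 CPM at ZT12 and 785, 470 and 792 at ZT8. Every wild-type mouse lay above every knockout mouse at both times. At ZT0 the order was turned, with 374, 323 and 318 CPM in wild type and 473, 841 and 1149 in knockout, and again the groups did not overlap. At ZT4 wild type gave 591, 358 and 129 CPM and knockout 214, 440 and 87.5, which overlap. At ZT16 the values were 317, 465 and 709 against 94.7, 189 and 390, and at ZT20 they were 308, 61.4 and 136 against 229, 62.2 and 490; the genotypes overlapped at both.

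The 12 group means of Alas1 ran in this order: wild type ZT12 at 1810 ± 357 CPM and ZT8 at 1251 ± 410, knockout ZT0 at 821 ± 338 and ZT8 at 682 ± 184, then wild type ZT16 at 497 ± 198 and knockout ZT12 at 463 ± 228 (SD, n = 3 each). Below these came wild type ZT4 at 360 ± 231 and ZT0 at 338 ± 31, knockout ZT20 at 261 ± 216, ZT4 at 247 ± 179 and ZT16 at 225 ± 151, and wild type ZT20 at 169 ± 127. No step between neighbours in this order exceeded the sum of the SDs of the pair. Alas1 was called lower in knockout at ZT12, by 3.92-fold (log2 -1.97 ± 0.63 SE, adjusted p = 0.0387). That call was lost without any single wild-type ZT12 mouse, without knockout ZT12 replicate 1 or 2, and without the sex term in the model. The adjusted p was 0.16 without wild-type replicate 1 (log2 -1.51), 0.0546 and 0.0549 without wild-type replicates 2 and 3, 0.166 and 0.0882 without knockout replicates 1 and 2, and 0.0587 without the sex term. The other times were not called: log2 1.23 ± 0.62 at ZT0 (adjusted p = 0.418), -0.91 at ZT8 (0.455) and -1.20 at ZT16 (0.248). Over all times Alas1 differed by -0.42 ± 0.25 (adjusted p = 0.193), a mean over times at which the difference had opposite signs. Leaving out knockout ZT4 replicate 2 alone gave a call (log2 -0.61, adjusted p = 0.0403). The value was 0.27 among mice of 13.9 weeks (adjusted p = 0.671) and -1.41 among younger mice (0.0505), a difference between ages that was not tested.

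The 24 h course of Alas1 in wild type, fitted as a single cosine, had a peak-to-trough ratio of 8.03 with the peak at ZT10.1 (adjusted p = 0.000487). In knockout the fitted ratio was 2.51 and was not called (adjusted p = 0.271), although the 6 time means did differ (adjusted p = 0.0194). The difference between the 2 fitted courses had an unadjusted p of 0.00183 and an adjusted p of 0.0672 in edgeR, and DESeq2 gave an adjusted p of 0.0224. When the ZT16/20 libraries were dropped the wild-type course remained (log2 peak minus trough 2.68, adjusted p = 0.00699), as it did with the GC trend of each library removed (2.90, adjusted p = 0.000617). Without those libraries the cosine was fitted to ZT0, ZT4, ZT8 and ZT12 only, so the 2.68 is partly extrapolated. Mice of a single group also differed widely in Alas1: the pooled SD within groups was 0.88 on the log2 scale, at percentile 96.8 of all genes tested, and the 3 knockout mice at ZT20 spanned 7.89-fold.

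Alad (ENSMUSG00000028393, chr4:62170203-62180952), whose product joins the first pyrrole ring, followed a called 24 h course in each genotype. Its means fell from 171 ± 22 CPM at ZT8 to 99.3 ± 27.4 at ZT20 in wild type and from 158 ± 33 to 87.4 ± 25.5 in knockout (SD, n = 3). The fitted peaks were at ZT6.44 in wild type (1.69-fold, adjusted p = 0.00796) and ZT5.10 in knockout (1.78-fold, 0.0033). The 4 lowest group means, 87.4 to 110 CPM, were those of ZT16 and ZT20, the libraries that stood apart. Without them the wild-type ratio was 0.08 on the log2 scale (adjusted p = 0.927), and with the GC trend removed it was 0.22 (0.53). Leaving them out also removed the times of the lowest means, so the 0.08 cannot separate those libraries from time of day. Between genotypes Alad differed by -0.07 ± 0.09 over all times (adjusted p = 0.563).

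Uros (ENSMUSG00000030979, chr7:140877926-140901755) encodes uroporphyrinogen III synthase, which closes the ring in the orientation used for heme. It was the only member called higher in knockout over all times (log2 0.27 ± 0.06, adjusted p = 0.000303). The called differences were at ZT8 and ZT12, where the wild-type means were lowest. At ZT8 the wild-type mice had 21.1, 24.5 and 22.6 CPM and the knockout mice 37.4, 32.7 and 33.9, with no overlap, and the difference was 0.61 ± 0.14 (adjusted p = 0.00379). At ZT12 the values were 23.9, 21.3 and 17.3 CPM against 22.5, 35.7 and 34.3, where 1 knockout mouse lay within the wild-type range. The difference at ZT12 was 0.57 ± 0.14 (adjusted p = 0.00611), and was not called without wild-type replicate 3 (0.0603) or knockout replicate 2 (0.0764). Before and after these times the genotypes lay closer. At ZT4 the wild-type mice ran from 24.7 to 29.1 CPM and the knockout mice from 29.9 to 34.5, just without overlap, and at ZT16 they were 50.3, 40.6 and 39.3 against 56.6, 48.7 and 46.3. At ZT0 the mice had 35.7, 31.5 and 38.3 CPM in wild type and 43.4, 37.1 and 37.0 in knockout. At ZT20 they had 48.1, 46.0 and 47.8 in wild type and 41.1, 48.7 and 39.9 in knockout, and the genotypes overlapped at both times.

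Uros ran opposite to Alas1 in wild type, with its fitted peak at ZT20.1 and a ratio of 2.27 (adjusted p = 7.8e-07). In knockout the peak was at ZT18.7 and the ratio 1.49 (adjusted p = 0.00386). The wild-type course remained without ZT16 and ZT20 (log2 0.76, adjusted p = 0.000721), whereas none of the knockout courses of the 9 genes did. Nearly all genes called in knockout lost their course in that setting. ZT20, next to the fitted wild-type peak, was then absent, so the 0.76 is partly extrapolated. The difference of the courses was not called (unadjusted p = 0.00721, adjusted p = 0.152), and neither was the difference of the genotype effect between times (unadjusted p = 0.00568), for which DESeq2 gave an adjusted p of 0.0462. The difference over all times was 0.31 in males (adjusted p = 0.0256) and 0.23 in females (0.207). It was 0.24 in mice of 13.9 weeks (0.115) and 0.27 in younger mice (0.1). The 3 mice of a group lay close together for Uros, with a within-group SD of 0.17 on the log2 scale (percentile 10.5).

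Urod (ENSMUSG00000028684, chr4:116662570-116667018) and Cpox (ENSMUSG00000022742, chr16:58670321-58680504) carry out the successive decarboxylations of the porphyrinogen ring. Urod means stayed between 75.2 and 99.9 CPM in all 12 groups, and the genotypes differed by 0.03 on the log2 scale (adjusted p = 0.708). The 3 knockout mice at ZT0 (102, 93.5 and 86.2 CPM) lay just above the 3 wild-type mice (72.6, 81.0 and 86.1). A 1.29-fold knockout course peaking at ZT4.33 was called (adjusted p = 0.012), and no wild-type course was. Cpox means lay between 92.4 and 160 CPM, and its difference over all times was -0.16 ± 0.08 (adjusted p = 0.13). Cpox was lower in all 3 knockout mice at ZT0 (126, 126 and 140 against 158, 160 and 163 CPM) and at ZT16 (96.6, 101 and 95.9 against 108, 142 and 138). Neither difference was called (adjusted p = 0.598 at ZT0 and 0.223 at ZT16), and no 24 h course of Cpox was called in either genotype.

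Ppox (ENSMUSG00000062729, chr1:173206121-173211317) forms protoporphyrin, the last step before iron is inserted. It was higher in the light phase, with wild-type means of 42.6 ± 1.8, 45.4 ± 2.7 and 42.4 ± 2.2 CPM at ZT0, ZT4 and ZT8 and 30.9 ± 3.3 at ZT12 (SD, n = 3). In knockout the ZT12 mean was 38.3 ± 4.4, and the 3 knockout mice at ZT12 (34.2, 37.8 and 43.0 CPM) lay above the 3 wild-type mice (34.1, 27.4 and 31.1). The fitted courses peaked at ZT3.56 in wild type (1.56-fold, adjusted p = 0.000671) and ZT5.14 in knockout (1.32-fold, 0.0342), and no difference between genotypes was called over all times (log2 0.05, adjusted p = 0.599).

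Fech (ENSMUSG00000024588), the ferrochelatase gene, had its wild-type peak near that of Alas1, with a smaller ratio. Wild-type means went from 155 ± 8 CPM at ZT0 to 212 ± 17 at ZT12 and 151 ± 4 at ZT20 (SD, n = 3), a 1.45-fold course peaking at ZT10.8 (adjusted p = 0.00021). In knockout the course was 1.29-fold with its peak at ZT13.7 (adjusted p = 0.00776). At ZT8 all 3 knockout mice (163, 183 and 152 CPM) lay below all 3 wild-type mice (187, 220 and 218), with a difference of -0.33 ± 0.13 that was not called (adjusted p = 0.121). Over all times the difference was -0.11 ± 0.05 (adjusted p = 0.0851). It was called by DESeq2 (log2 -0.125, adjusted p = 0.038), without the ZT16/20 libraries (-0.20, 0.0055) and with the GC trend removed (-0.13, 0.0423). Fech was the steadiest member between mice, with a within-group SD of 0.14 (percentile 3.7).

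**Figure D3:**
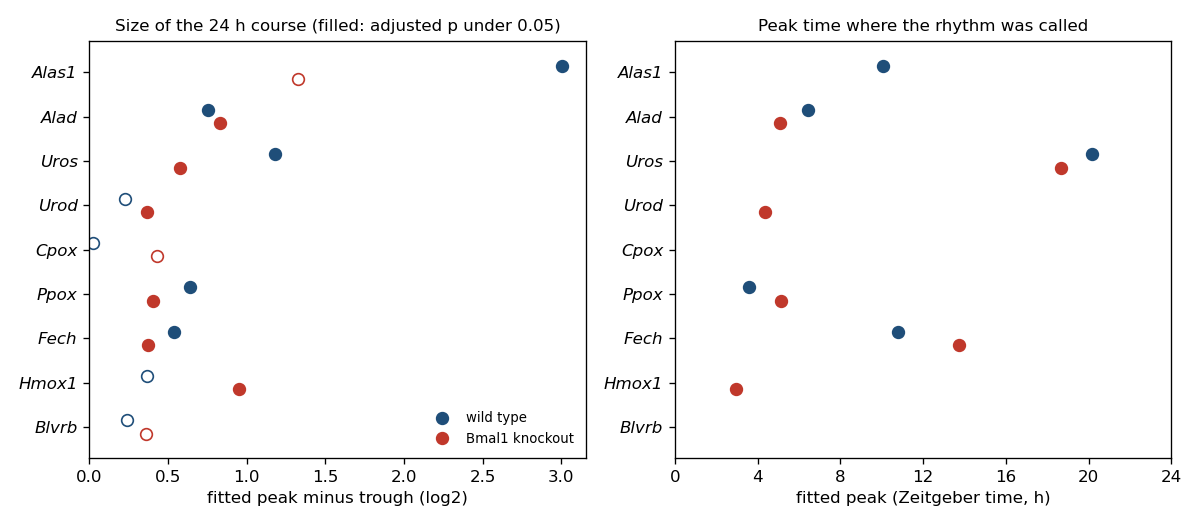
Left, fitted size of the 24 h course of each gene as log2 peak minus trough (x axis) in wild type (blue) and knockout (red), filled where the adjusted p was under 0.05; right, Zeitgeber time of the fitted peak for the called courses. Wild-type Alas1 stands at 3.01, the next largest value is that of knockout Alas1 at 1.33, which was not called, and the wild-type Uros peak at ZT20.1 lies about opposite those of Alas1 and Fech at ZT10.1 and ZT10.8.

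Across the 9 genes, 5 followed a called 24 h course in wild type (56.4% of all genes tested) and 6 in knockout (48.3%). The wild-type genes were Alas1, Alad, Uros, Ppox and Fech, and the knockout genes were Alad, Uros, Urod, Ppox, Fech and Hmox1. Without the ZT16/20 libraries, Alas1, Uros, Ppox and Fech kept the wild-type call, and none of the 6 knockout calls was kept. Most of all called genes lost their wild-type call there too, and nearly all lost their knockout call, as counted in the closing section. With the GC trend removed the knockout calls were Uros, Fech and Blvrb. A test for differences among the 6 times of any shape called 5 of 9 in wild type (53.6% of all genes) and 5 of 9 in knockout (49.7%). A differing 24 h course between genotypes was called by edgeR for 0 of the 9 (2.23% of all genes). Of these, 3 had an unadjusted p under 0.05 (Alas1, Uros and Fech), and DESeq2 called 1, Alas1. A genotype difference that changed between times was also called for 0 of the 9 (1.67% of all genes), with 2 under an unadjusted p of 0.05 (Alas1 and Uros) and 1 called by DESeq2, Uros.

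Hmox1 (ENSMUSG00000005413, chr8:77617490-77624495) was expressed at a low level, 29 to 294 reads per library. It was 1.47-fold lower in knockout over all times (log2 -0.56 ± 0.15, adjusted p = 0.00524). The largest gap was at ZT16, where wild-type mice had 15.6, 11.3 and 8.53 CPM and knockout mice 5.69, 2.75 and 4.72, without overlap. That 2.78-fold difference (log2 -1.48 ± 0.39, adjusted p = 0.0182) was not called without wild-type replicate 1 (-1.14, 0.0528), knockout replicate 2 (0.0856) or 3 (0.0875), or the sex term (0.0522). At ZT4 the values were 14.4, 21.1 and 12.7 CPM against 11.9, 9.56 and 12.1, and at ZT8 they were 14.9, 11.5 and 11.5 against 8.69, 9.52 and 10.6. At both times the knockout mice lay below the wild-type mice, with no call. At ZT0, ZT12 and ZT20 the genotypes overlapped, and the 3 knockout mice at ZT20 (12.4, 2.67 and 17.5 CPM) spanned 6.56-fold. The difference over all times was -0.71 in males (adjusted p = 0.0601), -0.39 in females (0.112), -0.29 in mice of 13.9 weeks (0.165) and -0.86 in younger mice (0.0738). It stayed called without the ZT16/20 libraries (-0.43, adjusted p = 0.00716) and without any single library. A 1.93-fold knockout course peaking at ZT2.98 was called (adjusted p = 0.0472).

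Blvrb (ENSMUSG00000040466, chr7:28232997-28251163) was 1.38-fold lower in knockout over all times (log2 -0.46 ± 0.08, adjusted p = 4.53e-05). Its group mean was lower in knockout at each of the 6 times. At ZT8 the wild-type mice had 122, 135 and 117 CPM and the knockout mice 68.5, 102 and 72.6. At ZT20 they had 130, 149 and 129 against 95.9, 102 and 105, and at ZT4 89.5, 92.2 and 132 against 79.1, 83.7 and 61.5. The genotypes did not overlap at ZT4, ZT8, ZT12 or ZT20. They overlapped at ZT0 (84.7, 107 and 114 CPM against 106, 93.5 and 56.6) and at ZT16 (88.9, 142 and 118 against 96.1, 97.4 and 78.6). The differences at ZT8 (-0.63 ± 0.20, adjusted p = 0.0427) and ZT12 (-0.59 ± 0.20, 0.0464) were called, but both lay close to the threshold, and limma with the cage as a random block did not call the second (adjusted p = 0.0505). At ZT12 the knockout mice had 73.3, 81.1 and 76.1 CPM. There a wild-type mouse with 180 CPM stood above the other two (82.2 and 98.1), and without it the difference was -0.31 (adjusted p = 0.352). Over all times the call held without any single library and without the ZT16/20 libraries (-0.50, 0.000279), and it was lost among younger mice alone (-0.38, 0.0951). No 24 h course of Blvrb was called in either genotype.

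Of the 9 genes, the values of the 2 genotypes did not overlap for 3 at ZT0 (25.4% of all genes) and 3 at ZT4 (25.5%). ZT8 had 5 such genes (31.8%), ZT12 had 3 (28.3%), and ZT16 (17.1%) and ZT20 (12.4%) had 2 each. At ZT8 Uros was above and Alas1, Fech, Hmox1 and Blvrb below wild type. Markers of other liver cells moved with genotype. All 13 macrophage markers tested were lower in knockout over all times (median log2 -0.69), among them Timd4, Clec4f, Cd68 and Marco, with summed levels of 143 to 598 CPM in wild-type and 99.7 to 459 in knockout libraries. Of 10 sinusoidal endothelial markers 7 were lower over all times, where 18.1% of all genes tested were called lower. Of the rest, Stab2 (log2 0.26, adjusted p = 0.101) and Lyve1 (0.25, adjusted p = 0.343) were above 0 without a call, and Lyve1 was called higher at ZT8 (1.52, adjusted p = 0.0471). Of 6 erythroid markers tested 1, Alas2, was lower, a call lost without wild-type ZT16 replicate 3, as given below. Summed erythroid levels were 32.5 to 420 CPM in wild type and 15.5 to 220 in knockout. The erythroid genes Slc4a1 and Gata1 had at most 4 reads in any library. Of 8 hepatocyte markers edgeR called 0, with 1 under an unadjusted p of 0.05 (DESeq2 was not counted for this list). Fewer cells of a type and less RNA per cell cannot be told apart in whole liver. None of the 13 macrophage markers was at 0 reads in any library. The part of the macrophage and endothelial markers in the lower Hmox1 and Blvrb was not tested.

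Sex by label was tested within each genotype. Of the 9 genes edgeR called 0 in wild type (3.99% of all genes) and 0 in knockout (6.46%), with 2 and 3 under an unadjusted p of 0.05; DESeq2 called 2 and 0. In wild type Blvrb was at -0.36 in females relative to males (adjusted p = 0.0861) and Urod at -0.22 (0.0853). Blvrb passed without the library whose sex markers went against its label (-0.44, adjusted p = 0.0279). In knockout Blvrb was at -0.26 (0.213) and Hmox1 at 0.59 (0.149). A sex difference that itself differed between genotypes was called for 0 of the 9 by edgeR (0.0985% of all genes) and by DESeq2, and 0 had an unadjusted p under 0.05.

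The enzymes of the pathway outside the 9 genes showed no common direction. Of Alas2, Hmox2, Blvra and Ugt1a1, 1 was higher and 2 were lower over all times (17.6% and 18.1% of all genes tested). Hmox2, the constitutive heme oxygenase, was 1.42-fold higher in knockout (log2 0.51 ± 0.07, adjusted p = 8.45e-07). Its levels were 39.0 to 66.8 CPM in wild-type mice (median 48.1) and 47.6 to 115 in knockout mice (median 65.8). Hmox1 and Hmox2 thus had differences of opposite sign. Ugt1a1, which conjugates bilirubin, was lower (log2 -0.71 ± 0.20, adjusted p = 0.0058), but it shares exons with other Ugt1a genes and its counts are uncertain. Alas2, the erythroid ALAS, was lower (-0.56 ± 0.21, adjusted p = 0.037), a call lost without wild-type ZT16 replicate 3 (-0.37, 0.118) and without the ZT16/20 libraries (-0.25). That replicate, whose sex markers went against its female label, had 131 CPM of Alas2. The other wild-type mice labelled female had 10.2 to 37.0 CPM, and the wild-type males 81.9 to 149. Blvra (0.15, adjusted p = 0.15) was not called.

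Clpx encodes the mitochondrial unfoldase that both activates ALAS and takes part in its breakdown, and it had the largest difference among the transport and mitochondrial genes. At ZT8 wild-type mice had 68.8, 80.7 and 65.2 CPM and knockout mice 542, 528 and 539, a difference of 7.50-fold (log2 2.91, adjusted p = 1.06e-09). At ZT12 the values were 93.6, 92.2 and 58.1 against 587, 626 and 640 (7.62-fold, adjusted p = 1.61e-09). These are the times at which wild-type Alas1 was highest. Wild-type Clpx had a 7.23-fold course peaking at ZT21.5, knockout Clpx a 1.49-fold one, and the courses differed (adjusted p = 8.77e-09). Over all times Clpx was 3.11-fold higher in knockout (log2 1.64 ± 0.09, adjusted p = 5.89e-14). Of the 16 genes tested in that list, Slc25a38, the mitochondrial glycine carrier, was also higher (0.15). Slc25a37, the mitochondrial iron importer mitoferrin 1, Abcb10 and Tspo were lower (-0.36, -0.26 and -0.23), and 11 were not called. Over all genes tested 35.7% were called.

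Por, which passes electrons to P450 enzymes and to heme oxygenase, followed an 8.28-fold course in wild type (peak at ZT8.79, adjusted p = 4.87e-06). At ZT12 wild-type mice had 738, 919 and 973 CPM and knockout mice 504, 354 and 174, and at ZT8 906, 544 and 689 against 134, 183 and 195. At both times the genotypes did not overlap, and Por was called lower at ZT8 (log2 -2.03, adjusted p = 1.7e-05), ZT12 (-1.44, 0.000981) and ZT16 (-1.62, 0.000487). Over all times it was 1.86-fold lower (-0.90 ± 0.12, adjusted p = 5.76e-07), and its difference changed between times (adjusted p = 0.00201). Of the 6 genes tested that insert heme or serve P450 enzymes, Por and Cyb5r3 (-0.37) were lower and 4 were not called. Over all genes tested 35.7% were called, and 18.1% were called lower.

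**Figure D4:**
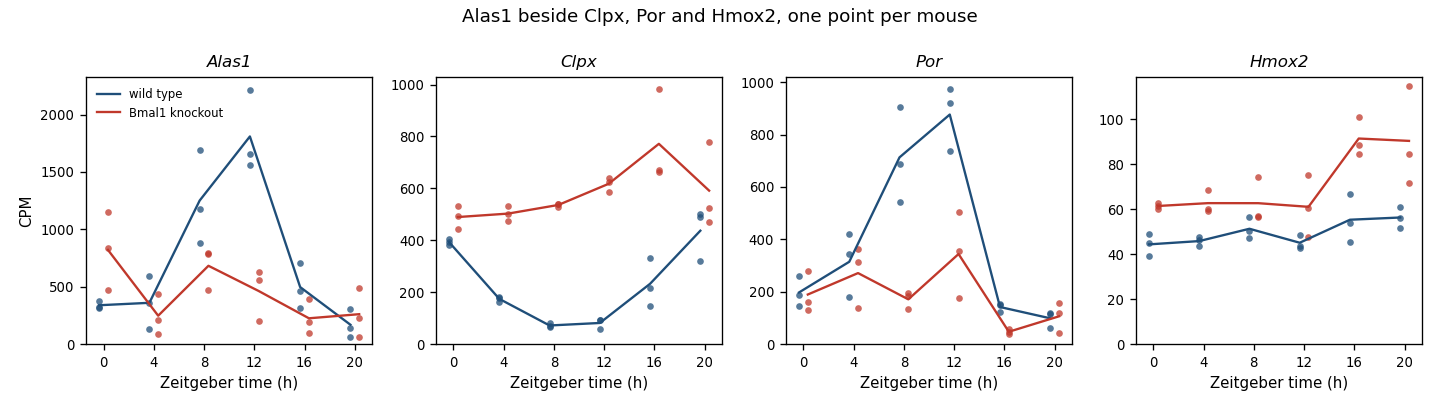
Levels of Alas1, Clpx, Por and Hmox2 in CPM (y axis, from 0) against Zeitgeber time in hours (x axis), with 1 point per mouse and lines through the group means, wild type in blue and Bmal1 knockout in red. In wild type Alas1 and Por were high at ZT8 and ZT12, where Clpx was low; the lowest knockout mouse had 445 CPM of Clpx.

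Of 14 factors known to act on Alas1, 7 were called over all times, 1 higher and 6 lower. Over all genes tested 35.7% were called, 17.6% higher and 18.1% lower, and these shares apply to each list in this paragraph. Npas2, a partner of BMAL1 that binds heme, was higher (log2 5.56). That value is enlarged by wild-type means near the floor, 0.0786 CPM at ZT8 and 0.0253 at ZT12. At ZT0 the Npas2 means were 17.3 CPM in wild type and 43.1 in knockout. Nr1d1 (-3.05) and Nr1d2 (-2.58), which encode the heme-binding REV-ERB repressors, the PAR bZIP factors Dbp (-1.74) and Tef (-0.23), and the receptors Ppara (-0.92) and Nr1i2 (-0.26) were lower. For some of them this is a mean over times of opposite sign. Dbp (log2 2.58, adjusted p = 9.78e-05) and Tef (1.68, adjusted p = 1.95e-06) were called higher in knockout at ZT0, and at ZT20 Dbp (0.61), Tef (0.38) and Nr1d1 (0.32) were above 0 without a call. Ppargc1a, a fasting coactivator of Alas1, was not called (0.07, adjusted p = 0.782). Of 10 tested genes around the heme-sensing repressor BACH1 and the activator NRF2, which act in opposite ways on Hmox1, 3 were higher (Gclc, Srxn1 and Fth1, by 0.22 to 0.26) and 2 were lower. The lower genes were Bach1 itself (-0.89 ± 0.09, adjusted p = 2.03e-08) and Gclm (-0.22). Bach1 was lower at ZT8 (-1.54), ZT12 (-0.91) and ZT16 (-1.16). Of 5 genes of heme and hemoglobin uptake, Hp (haptoglobin, 0.40) was higher and Cd163 (the haptoglobin-hemoglobin receptor of macrophages, -0.54) lower. Of 5 genes of bilirubin disposal, Abcc3 (0.41) was higher and Gsta3 (-0.58) lower.

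The genes whose 12 group means followed Alas1 most closely on the log2 scale were Pex26 (Pearson r = 0.938), Jmjd4 (0.929), Map2k3 (0.927), Fitm2 (0.92) and Tesk2 (0.915). For the other members the closest was Slc25a1 for Alad (0.951), Ftsj2 for Uros (0.97), Klhdc8b for Urod (0.937), Xirp1 for Cpox (0.904), Tspan18 for Ppox (0.96), P2ry1 for Fech (0.913), Lrrc33 for Hmox1 (0.965) and Nceh1 for Blvrb (0.956). These are the highest among genes tested, leaving out the members and symbols patterned as predicted genes, clones or pseudogenes. That pattern also left out symbols of a C followed by a digit, such as C1qa. The correlations describe 12 means that share libraries. Among the members themselves Alas1 went with Alad (r = 0.61), Cpox (0.62) and Fech (0.59) and against Uros (-0.72) over the same 12 means. Uros also went against Alad (-0.69), and Alad went with Ppox (0.69) and Urod (0.64). The 12 means include the ZT16/20 libraries, without which the wild-type course of Alad was not called. Hmox1 and Blvrb followed each other weakly (0.34).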

How the data were processed

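Reads were made from TruSeq stranded mRNA libraries of 36 livers on an Illumina HiSeq instrument, with 13 cycles of PCR and 6 barcoded samples per pool, per the labels' protocols. The submitters' processing notes name CASAVA, STAR 2.4.0f1 and mm9. The counting program is not given in the sources used here. The authors deposited raw read counts per gene in 1 table, whose name marks them as sense-strand counts in a minimum form that is not explained. Totals are nearly equal between libraries, and how this came about is not stated. The 9 genes and all gene lists were chosen with earlier results of these data known.

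Counts were scaled by TMM, filtered with filterByExpr over the 12 groups (minimum count 10, total 15; 8453 genes left out) and fitted in edgeR 4.0.16 (R 4.3.3, limma 3.58.1) with a mean for each group and labelled sex. The contrasts were knockout minus wild type over all times and at each time, its change between times, and differences among times within each genotype. A second model fitted a 24 h cosine and sine per genotype, and another sex within genotype. p-values were adjusted by Benjamini-Hochberg over 13201 genes, and calls used 0.05. The scripts were tested on simulated data. The precision of low genes is limited by counting error.

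Named were the 9 genes, Arntl, the fixed pathway lists (counts, and examples by smallest p), and the genes most like each member by Pearson correlation of group means. Flvcr1, Flvcr2, Fam210b and Iba57 were not analysed here. Alternatives were DESeq2 1.42.0 and its size factors, other filters, age added or sex removed, subsets by sex, age and time, and each library left out. Removal of each library's GC trend, and limma on voom weights with the cage as a random block or without it, were chosen after seeing earlier results. Some genes of the lists are not reported here.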

Additional observations from a re-analysis of the deposited data

Results flagged for a closer look

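None of the 9 heme genes met a rule for a closer look; the genes below belong to the pathway lists, and their values are edgeR adjusted p-values. The genotype difference changed between times for Clpx (1.1e-06), Por (0.002), Nr1d1 (0.0044), Nr1d2 (3e-05), Dbp (4.9e-12), Tef (1.5e-08) and Npas2 (1e-10). The 24 h course differed between genotypes for Clpx (8.8e-09), Nr1d1 (0.001), Nr1d2 (3.5e-05), Dbp (1.7e-07), Tef (2.5e-05), Npas2 (2.4e-15) and Gclc (0.03).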

How the results depend on the processing

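No result of the genes named changed its direction past a threshold. With 1 library left out, 5061 values of the 9 genes kept their direction and side of the threshold, 105 lost their call and 18 gained one; under the other alternatives 1371 kept it, 55 lost it and 23 gained one. The cause of these changes was not tested, except that subsets hold fewer animals. Mice of different groups could not be paired by replicate number, because the labels give them no shared ones. The mice were not all housed apart: 11 of the 20 cages held mice of more than 1 group (27 mice) and 5 held both genotypes. A fit with the cage as a random block in limma was chosen after the results were known. All 144 results on the 9 genes, most of them not called, fell on the same side of the threshold as in limma without it. Of the 144, 143 fell on the same side as in edgeR. Blvrb at ZT12 was the exception (adjusted p = 0.0505, and 0.06 without the block). Genes called over all times were 4950 with the block and 4719 without it. Wild-type peak times with 1 library left out stayed at ZT9.696 to 10.35 for Alas1, ZT6.126 to 7.214 for Alad, ZT19.83 to 20.45 for Uros, ZT2.98 to 4.168 for Ppox and ZT10.33 to 11.07 for Fech.

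Over all times 4711 genes were called, against 2482 in males, 2397 in females, 2879 in mice of 13.9 weeks and 1592 in younger mice; of the 3 members called, 1 was called in females and 0 in younger mice. Without the sex term, 152 genes were called at ZT0 (260 with it), 309 at ZT4 (470) and 293 at ZT20 (446), with 1 member at ZT8 (2), 1 at ZT12 (3) and 0 at ZT16 (1). Fitted on the libraries of 1 time alone, 943 genes were called at ZT0, 1156 at ZT4, 75 at ZT16 (1136) and 6 at ZT20; the members called were then 1 at ZT0 (0), 1 at ZT8, 1 at ZT12 and 0 at ZT16. Without a filter on low counts 1 member and 1027 of 21654 genes were called at ZT8 (1130 of 13201 with it), 3 members and 5848 genes followed a knockout 24 h course (6 and 6382), and 35 genes differed in their sex difference between genotypes (13). DESeq2 called 493 genes for a genotype difference changing between times (221) with 1 member (0), 503 for a differing 24 h course (294) with 1 member (0), 824 for sex in wild type (527) with 2 members (0), and 62 for a sex difference between genotypes. Without the libraries of ZT16 and ZT20 these counts were 454 and 468 genes for the changing difference and the differing course, 1295 genes and 3 members for sex in wild type, and 23 for the sex difference between genotypes. Without them, which also removes 2 of the 6 times and 12 of the 36 animals, 1740 genes differed between times in wild type (7079) and 50 in knockout (6556) with 0 members (5), and 2113 followed a wild-type course (7451) and 94 a knockout one (6382) with 0 members. The loss of those times and of those libraries was not separated. With the GC trend removed, 3851 genes and 3 members differed between times in knockout, 3319 genes and 3 members followed a knockout course, and 1 member differed by sex in wild type.

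With 1 library left out, genes and members called ranged over 4416 to 5235 and 3 to 5 for all times, 94 to 335 and 0 at ZT0, 222 to 580 and 0 at ZT4, 656 to 1370 and 1 to 2 at ZT8, 932 to 1867 and 0 to 3 at ZT12, 652 to 2542 and 0 to 1 at ZT16, and 200 to 644 and 0 at ZT20. They ranged over 180 to 372 and 0 to 1 for the changing difference, 6359 to 7699 and 5 to 6 for times in wild type, 5433 to 7203 and 3 to 5 in knockout, 6458 to 7542 and 5 to 6 for the wild-type course, 5326 to 6806 and 4 to 6 for the knockout course, and 246 to 392 and 0 to 1 for the differing course. For sex they ranged over 239 to 1191 and 0 to 2 in wild type, 438 to 1158 and 0 in knockout, and 7 to 40 and 0 for the difference between genotypes. The differing course was called for Alas1 without knockout ZT4 replicate 1 (adjusted p = 0.047) or 3 (0.0262) or knockout ZT20 replicate 2 (0.0397), and for Uros without knockout ZT12 replicate 1 (0.0297).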
